A study of Homo sapiens with 8 samples.

Results

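The genes of 10 haematopoietic transcription factors, GATA1, GATA2, TAL1, KLF1, GFI1B, RUNX1, MYB, SPI1, MECOM and LYL1, were followed in leukaemic cells with and without knockdown of NYNRIN. They were chosen by symbol, with earlier results of these data known. All 10 are among the 13068 genes listed in both deposited tables. The labels give the cells as leukaemia stem cells of KG-1a, a cell line from human acute myeloid leukaemia, with bone marrow as the tissue. By lentivirus they carried either a short hairpin RNA against NYNRIN (shNYNRIN, labelled NYNRIN-knockdown) or a control hairpin (shCTL, labelled WT), and they were sorted by FACS before RNA sequencing. Each group had 4 libraries, of which replicates 1 and 2 stand in a first deposited table (set 1) and replicates 3 and 4 in a second (set 2). Values are read as FPKM (fragments counted per transcript length and per library size). The column of shCTL replicate 3 holds whole numbers, so this library was left out of the reported tests, its listed value is given in brackets, and fits that include it are named as such. Set 2 therefore had 1 tested control library. No label says that replicates came from separate cultures, so the p-values reflect library-to-library spread that may be technical. How many different hairpins were used is not stated in the labels either.

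These factors set the fate of blood cells by binding short DNA words at shared enhancers. GATA2, RUNX1, TAL1, LYL1, MYB and MECOM are known for their part in haematopoietic stem and progenitor cells. GATA1 and GFI1B act in red cell and platelet precursors, and KLF1 in red cell precursors. SPI1, which encodes PU.1, acts in myeloid cells and is known to oppose GATA1. TAL1 and LYL1 are related basic helix-loop-helix proteins that pair with E proteins and reach GATA factors through the bridging proteins LMO2 and LDB1. In bulk RNA, a change in the share of cells that express a gene and a change in RNA per cell cannot be told apart.

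The labelled cell type was checked against marker genes, of which some were low and others present. CD34, the progenitor antigen that KG-1a cells are known for, lay between 0.681 and 1.79 FPKM in the 8 libraries. CD7, another antigen of this line, was listed at 0.116 FPKM or less in set 2. KG-1a is also known for a fusion that involves the receptor gene FGFR1, and FGFR1, a gene named after its values were seen, was listed at 0.0471 FPKM or less in set 2. PTPRC, the pan-leucocyte antigen CD45, was at 22 to 30.7 FPKM, CD44 at 12 to 20.2 FPKM and the leucocyte sialoglycoprotein SPN at 64.8 to 79.8 FPKM, so that 3 of the 5 markers of KG-1a cells and progenitors were at 1 FPKM or more in each of the 7 tested libraries. Markers of other lineages were high: the platelet integrin ITGA2B stood at 507 to 588.5 FPKM, GP9 at 130.04 to 149.2 FPKM and the mast cell and basophil enzyme HDC at 67 to 83.3 FPKM. By the same measure 4 of 5 markers passed for megakaryocytes, 5 of 7 for red cells, 5 of 5 for mast cells and basophils, 0 of 7 for granulocytes and monocytes, 1 of 5 for B cells and 0 of 5 each for T cells and stroma. Of the red cell markers the other 2 were at 0.320 FPKM or less in set 2 and not listed in set 1. The granulocyte enzyme MPO and the T cell antigen CD3E were listed at 0 in the 4 libraries of set 2. The summed level of the mast cell and basophil markers was 113 to 114 FPKM in shCTL and 102 to 103 FPKM in shNYNRIN of set 1. In set 2 it was 92 to 99.8 against 118 to 123.5 FPKM (shCTL replicate 3 included), the direction in which most of the 10 factors differed. HDC went this way in both sets, while CPA3 and MS4A2 overlapped between the groups in set 1. TPSAB1 and TPSB2 were lower with shNYNRIN in both sets. In set 2 they stood at 4.09 and 4.28 FPKM in shCTL replicate 4. In shNYNRIN of set 2 TPSAB1 stood at 3.54 and 3.15 FPKM and TPSB2 at 3.28 and 3.45 FPKM. The summed markers of KG-1a cells and progenitors went the same way as the mast cell and basophil sum. They were at 125 to 128 FPKM in shCTL and 105 to 106 FPKM in shNYNRIN of set 1. In set 2 they were at 102 to 105 against 119.5 to 122 FPKM. PTPRC, CD44 and SPN went with this sum, while CD34 went the other way in both sets. CD34 was at 0.949 and 0.933 FPKM in shCTL and 1.42 and 1.20 FPKM in shNYNRIN of set 1. In set 2 it was at 1.79 FPKM in shCTL replicate 4 (1 in shCTL replicate 3) and 0.765 and 0.681 FPKM in shNYNRIN. The summed megakaryocyte markers were at 787 to 791 against 722 to 748 FPKM in set 1 and 710 to 740 against 712 to 715 FPKM in set 2, and the summed erythroid markers at 83.8 to 90.5 against 96.9 to 98.6 FPKM in set 1 and 77 to 96.0 against 85.8 to 88.8 FPKM in set 2. The part of these markers in the results was not tested, and the cells are called by their label below.

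NYNRIN itself stood at 12.2 and 12.5 FPKM in shCTL and 6.98 and 7.30 FPKM in shNYNRIN of set 1, and at 10.4 FPKM in shCTL replicate 4 (10 in shCTL replicate 3) and 2.83 and 2.84 FPKM in shNYNRIN of set 2. No shNYNRIN library reached the level of a shCTL library. The 7 tested libraries summed to between 307554 and 311536 FPKM over the genes in both tables. The authors' deposited table gives a mean normalized count per library of set 1 for each of the 10 genes, from 3401 for MECOM to 42975 for RUNX1. In set 2, steps among the low values put the depth of shNYNRIN replicate 3 at 1.34 times, and that of shNYNRIN replicate 4 at 1.29 times, that of shCTL replicate 4.

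The promoters of KLF1, TAL1 and MYB are shown because the levels of these genes, with GFI1B, followed the numbers in the library names described further on. Each is the 250 bases before a RefSeq start (GRCh38.p14, minus strand for KLF1 and TAL1 and plus strand for MYB, written 5′ to 3′ along the gene), at chr19:12887202-12887451, chr1:47232336-47232585 and chr6:135181058-135181307. Capitals mark the GATA motif, searched as AGATAA or TGATAA and as AGATAG or TGATAG, on both strands.
KLF1: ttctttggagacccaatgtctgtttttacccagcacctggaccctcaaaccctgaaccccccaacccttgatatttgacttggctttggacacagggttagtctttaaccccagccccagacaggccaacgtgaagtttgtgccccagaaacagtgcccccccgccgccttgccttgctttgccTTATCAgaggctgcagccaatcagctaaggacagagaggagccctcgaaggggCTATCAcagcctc
TAL1: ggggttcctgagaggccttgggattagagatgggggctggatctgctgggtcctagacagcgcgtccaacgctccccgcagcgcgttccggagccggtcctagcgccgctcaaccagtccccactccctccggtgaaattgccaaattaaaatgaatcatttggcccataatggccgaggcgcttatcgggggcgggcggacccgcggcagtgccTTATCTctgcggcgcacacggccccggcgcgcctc
MYB: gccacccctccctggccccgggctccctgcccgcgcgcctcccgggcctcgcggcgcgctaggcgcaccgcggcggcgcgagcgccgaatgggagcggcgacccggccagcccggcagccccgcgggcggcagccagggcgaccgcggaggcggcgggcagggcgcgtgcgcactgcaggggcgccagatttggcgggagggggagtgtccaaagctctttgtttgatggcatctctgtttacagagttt
The KLF1 window holds 2 such words, the TAL1 window shown 1 and the MYB window 0. Another TAL1 window, at chr1:47231716-47231965, is not shown and holds 0. RefSeq windows were given for 9 of the 10 genes, 14 windows in all, and 6 of them hold the motif (in KLF1, TAL1, LYL1, GFI1B and MECOM), against 22.3% of 35116 windows of the same length. An E-box (CANNTG), the kind of word that TAL1 and LYL1 bind with their partners, stands in 7 of the 14 windows and in 61.8% of all windows. A match describes these letters only.

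By mean level over the 7 tested libraries the genes ranked GFI1B (232 FPKM), GATA2 (209), GATA1 (165), RUNX1 (155), TAL1 (113), LYL1 (95.2), MYB (85.0), SPI1 (76.6), KLF1 (64.3) and MECOM (15.1). FPKM are per length, so levels can be set beside each other, but neighbours in this order overlapped in range over these libraries, apart from RUNX1 and TAL1, from SPI1 and KLF1 and from KLF1 and MECOM. RUNX1 ran from 143.4 to 162.8 FPKM and TAL1 from 96.2 to 121 FPKM. MECOM, at 9.49 to 17.7 FPKM, was the lowest and had the widest span, a highest value 1.87 times the lowest. SPI1, at 72.8 to 82.0 FPKM, had the narrowest, 1.13 times.

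The main comparison asked how the factors differed with NYNRIN knockdown within each set. In set 1 GATA2, MYB, KLF1, RUNX1, TAL1 and LYL1 fell, by 0.12 to 0.33 on the log2 scale. In set 2 GATA2, MYB, TAL1, LYL1, GFI1B and MECOM rose, by 0.17 to 0.83. GATA2, MYB, TAL1 and LYL1 thus passed the test in both sets with opposite signs. GATA1 and SPI1 passed in neither. Within a set the groups also differ in the numbers of their library names, given further on, and these cannot be told apart from the hairpin there.

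GATA2 (ENSG00000179348, chromosome 3, 128479427 to 128493185, minus strand, GRCh38 in the GENCODE 29 annotation), a zinc finger factor that keeps stem and progenitor cells, stood in set 1 at 204.5 and 208.2 FPKM in shCTL and 172 and 170.6 FPKM in shNYNRIN. In set 2 it stood at 217 FPKM in shCTL replicate 4 (213 in shCTL replicate 3) and at 244.4 FPKM in both shNYNRIN libraries. The groups did not overlap in either set, with shNYNRIN the lower group in set 1 and the higher in set 2. For GATA2 the log2 fold change was -0.27 (SE 0.024, limma adjusted p = 0.00191) in set 1 and 0.17 (SE 0.029, limma adjusted p = 0.00880) in set 2.

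MYB (ENSG00000118513, chromosome 6, 135181315 to 135219173, plus strand), which drives proliferation of progenitors, stood in set 1 at 93.7 and 90.5 FPKM in shCTL and 75.4 and 71.8 FPKM in shNYNRIN. Its set 2 values were 74.5 FPKM in shCTL replicate 4 (75 in shCTL replicate 3) and 94.35 and 94.7 FPKM in shNYNRIN. The 4 low values thus belonged to shNYNRIN in set 1 and to shCTL in set 2, and the 4 high values lay close together. For MYB the log2 fold change was -0.32 (SE 0.034, limma adjusted p = 0.00363) in set 1 and 0.34 (SE 0.042, limma adjusted p = 0.00295) in set 2.

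RUNX1 (ENSG00000159216, chromosome 21, 34787801 to 36004667, minus strand), a runt-domain factor needed for the first blood stem cells and often altered in leukaemia, stood in set 1 at 162.8 and 157.3 FPKM in shCTL and 145.3 and 143.4 FPKM in shNYNRIN. In set 2 its values were 158.6 FPKM in shCTL replicate 4 (161 in shCTL replicate 3) and 157.04 and 158.8 FPKM in shNYNRIN. The groups were apart in set 1, while in set 2 shCTL replicate 4 lay between the shNYNRIN libraries. For RUNX1 the log2 fold change was -0.15 (SE 0.027, limma adjusted p = 0.0169) in set 1 and -0.0065 (SE 0.034, limma adjusted p = 0.917) in set 2.

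MECOM (ENSG00000085276, chromosome 3, 169083499 to 169663618, minus strand) encodes EVI1 and the longer MDS1-EVI1 protein, which gene-level values do not tell apart. In set 1 it stood at 14.9 and 15.9 FPKM in shCTL and 14.5 and 15.9 FPKM in shNYNRIN, and the groups overlapped. Its set 2 values were 9.49 FPKM in shCTL replicate 4 (9 in shCTL replicate 3) and 17.7 and 17.6 FPKM in shNYNRIN. The shCTL libraries of set 2 were the lowest of the 8, below the shCTL libraries of set 1 as well. The fold change of MECOM, on the log2 scale, was -0.022 (SE 0.057, limma adjusted p = 0.825) in set 1 and 0.83 (SE 0.069, limma adjusted p = 0.000842) in set 2, the largest of the 10 genes in either set.

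TAL1 (ENSG00000162367, chromosome 1, 47216290 to 47232220, minus strand) stood in set 1 at 121 and 120.9 FPKM in shCTL and 110.1 and 112 FPKM in shNYNRIN. In set 2 it stood at 96.2 FPKM in shCTL replicate 4 (95 in shCTL replicate 3) and 116 and 114 FPKM in shNYNRIN. The 4 shNYNRIN libraries lay between the shCTL libraries of set 1, which were the highest, and those of set 2, which were the lowest. For TAL1 the log2 fold change was -0.12 (SE 0.026, limma adjusted p = 0.0273) in set 1 and 0.25 (SE 0.032, limma adjusted p = 0.00305) in set 2.

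LYL1 (ENSG00000104903, chromosome 19, 13099033 to 13103161, minus strand), the relative of TAL1, had the same arrangement. In set 1 it stood at 103 and 108 FPKM in shCTL and 97.8 and 93.9 FPKM in shNYNRIN. Its set 2 values were 79.7 FPKM in shCTL replicate 4 (81 in shCTL replicate 3) and 91.5 and 92.6 FPKM in shNYNRIN. As for TAL1, the shCTL libraries held both the highest and the lowest values. The fold change of LYL1, on the log2 scale, was -0.14 (SE 0.034, limma adjusted p = 0.0373) in set 1 and 0.21 (SE 0.042, limma adjusted p = 0.0168) in set 2.

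KLF1 (ENSG00000105610, chromosome 19, 12884422 to 12887199, minus strand), the erythroid Krüppel-like factor that switches on adult globin and other red cell genes, stood in set 1 at 72.3 and 69.4 FPKM in shCTL and 59.6 and 53.0 FPKM in shNYNRIN. In set 2 it stood at 60.0 FPKM in shCTL replicate 4 (59 in shCTL replicate 3) and 69.99 and 65.9 FPKM in shNYNRIN. Neither set had overlapping groups. For KLF1 the log2 fold change was -0.33 (SE 0.060, limma adjusted p = 0.0160) in set 1 and 0.18 (SE 0.073, limma adjusted p = 0.141) in set 2, where it did not pass. With shCTL replicate 3 as deposited it passed there (limma adjusted p = 0.0296).

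GFI1B (ENSG00000165702, chromosome 9, 132944000 to 132991687, plus strand), a zinc finger repressor needed for red cell and platelet precursors, was the gene with the highest mean level. In set 1 it stood at 234.02 and 234.05 FPKM in shCTL and 222 and 209 FPKM in shNYNRIN. Its set 2 values were 216 FPKM in shCTL replicate 4 (208 in shCTL replicate 3) and 257 and 252 FPKM in shNYNRIN. The groups did not overlap in either set. The fold change of GFI1B, on the log2 scale, was -0.12 (SE 0.033, limma adjusted p = 0.0549) in set 1, just outside the threshold, and 0.24 (SE 0.041, limma adjusted p = 0.00908) in set 2.

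GATA1 (ENSG00000102145, chromosome X, 48786554 to 48794311, plus strand), the erythroid and megakaryocyte counterpart of GATA2, stood in set 1 at 170.6 and 168 FPKM in shCTL and 176 and 170.7 FPKM in shNYNRIN. In set 2 it stood at 154 FPKM in shCTL replicate 4 (152 in shCTL replicate 3) and 159 and 160 FPKM in shNYNRIN. Its libraries differed more between the sets than between the groups. For GATA1 the log2 fold change was 0.033 (SE 0.026, limma adjusted p = 0.430) in set 1 and 0.054 (SE 0.032, limma adjusted p = 0.291) in set 2.

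SPI1 (ENSG00000066336, chromosome 11, 47354860 to 47378576, minus strand) stood in set 1 at 78.8 and 81.0 FPKM in shCTL and 82.0 and 75.02 FPKM in shNYNRIN, which overlap. Its set 2 values were 73.0 FPKM in shCTL replicate 4 and 72.8 and 73.4 FPKM in shNYNRIN, with shCTL replicate 3 listed lower, at 62. The fold change of SPI1, on the log2 scale, was -0.027 (SE 0.044, limma adjusted p = 0.722) in set 1 and 0.0026 (SE 0.054, limma adjusted p = 0.982) in set 2.

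**Figure D1:**
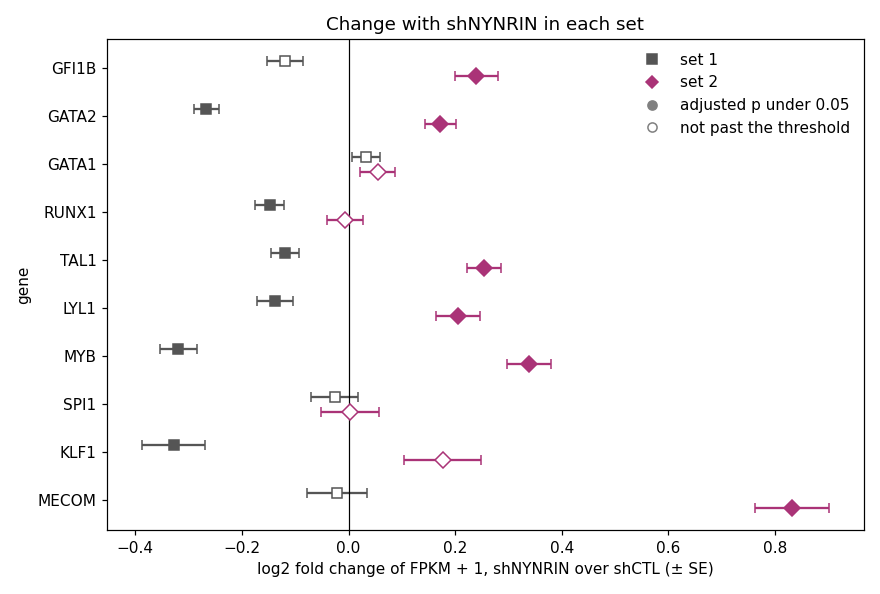
Log2 fold change of FPKM + 1, shNYNRIN over shCTL, for each gene (rows, ordered by mean level) in set 1 (squares) and set 2 (diamonds), with bars of 1 SE and filled symbols for a limma adjusted p under 0.05. Filled squares lie between -0.33 and -0.12 and filled diamonds between 0.17 and 0.83, and the symbols of GATA1 and SPI1 are open in both sets.

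Of the 10 genes, 6 fell and 0 rose in set 1, where 6.61% of all 12939 genes tested fell, 9.33% rose and 15.9% changed in either direction. In set 2, 6 rose and 0 fell, where 11.6% of all genes rose, 8.71% fell and 20.3% changed in either direction. Calls were a larger share of the 6150 genes of at least 10 FPKM in 2 libraries, a level all 10 genes reached. Tested alone, 1225 of these 6150 rose and 878 fell in set 1, and 1248 rose and 1084 fell in set 2. The 10 genes then gave 0 and 7 in set 1 and 6 and 0 in set 2. With upper-quartile scaling 807 of all 12939 genes rose and 1173 fell in set 1, against 1207 and 855, and the 10 genes then gave 0 and 7. Their median log2 fold change was -0.13 in set 1 and 0.19 in set 2, beside medians of 0.026 and 0.018 over all genes tested. Falling in set 1 and rising in set 2, as 4 of the 10 did, was seen in 1.87% of all genes. Groups that did not overlap were lower with shNYNRIN for 7 of the 10 in set 1 (24.5% of all genes) and higher for 1, GATA1 (35.0%). In set 2 they were higher for 8 of the 10 (27.1%) and lower for 0 (22.1%). GATA2, GFI1B, KLF1, LYL1, MYB and TAL1 showed both, as did 8.39% of all genes, while 0 of the 10 showed the reverse, as did 8.63%. The authors' deposited table marks 7 of the 10 genes as down in set 1, where it marks 15.2% of 13068 genes so, GFI1B among the 7 with a log2 fold change of -0.15 and a q-value of 0.000158, and gives a q-value of 1.77e-23 for GATA2 and 4.00e-18 for MYB.

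Within sets the count of calls over all genes was smaller with 1 library left out, except in set 2 without shNYNRIN replicate 1 or 2. There it was larger, for the 10 genes as well. Elsewhere the count of the 10 genes was smaller or the same. Without shCTL replicate 1 the set 1 calls of KLF1, RUNX1, TAL1 and LYL1 were lost (limma adjusted p = 0.0796, 0.0889, 0.113 and 0.0715), and without shCTL replicate 2 those of KLF1, TAL1 and LYL1 (limma adjusted p = 0.0585, 0.115 and 0.175), so that 2 and 3 of the 10 passed, beside 611 and 626 of all genes against 2062. TAL1 then had a log2 fold change of -0.12 in both fits, as with all libraries, and KLF1 -0.30 and -0.36. The TAL1 call was also lost without shNYNRIN replicate 1, 3 or 4 (limma adjusted p = 0.0720, 0.0621 and 0.0622) and the LYL1 call without shNYNRIN replicate 2, 3 or 4 (limma adjusted p = 0.107, 0.0754 and 0.0751). Leaving out shNYNRIN replicate 3 or 4, which are in set 2, does not touch the set 1 fold change. GFI1B passed in set 1 without shNYNRIN replicate 1 (limma adjusted p = 0.0252). In set 2, 3 of the 10 passed without shNYNRIN replicate 3, where GATA2, GFI1B and LYL1 were lost (limma adjusted p = 0.0530, 0.0529 and 0.0651), and GATA2 and LYL1 were also lost without shNYNRIN replicate 4 (limma adjusted p = 0.0535 and 0.0812), while KLF1 passed without shNYNRIN replicate 1 or 2 (limma adjusted p = 0.0495 and 0.0490).

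A further comparison asked whether the effect of the hairpin differed between the sets, with set 1 subtracted from set 2. It was more positive in set 2 for MECOM (difference of log2 fold changes 0.85, SE 0.089, limma adjusted p = 0.00173), MYB (0.66, SE 0.054, limma adjusted p = 0.000800) and KLF1 (0.50, SE 0.094, limma adjusted p = 0.0127). It was also more positive for GATA2 (0.44, limma adjusted p = 0.000897), TAL1 (0.37, limma adjusted p = 0.00200), GFI1B (0.36, limma adjusted p = 0.00544) and LYL1 (0.34, limma adjusted p = 0.00684). In all, 7 of the 10 passed, each higher in set 2, where 10.3% of all genes were higher and 20.4% differed. In each fit without 1 library (any but shCTL replicate 4, whose loss leaves no value) 7 of the 10 passed. RUNX1 (0.14, limma adjusted p = 0.0634), GATA1 (0.021, limma adjusted p = 0.772) and SPI1 (0.029, limma adjusted p = 0.810) did not pass. With shCTL replicate 3 as deposited RUNX1 also passed (limma adjusted p = 0.0343).

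Fitted with 1 effect for both sets, the limma model left 0 of the 10 past the threshold (0 also at an unadjusted p under 0.05), where 0.317% of all genes passed. The values ran from -0.13 for KLF1 (SE 0.11, limma adjusted p = 0.570) to 0.32 for MECOM (SE 0.16, limma adjusted p = 0.350). NYNRIN, the target of the hairpin, did not pass in this fit either (-1.05, SE 0.16, limma adjusted p = 0.0612). A difference between the sets in the effect of the hairpin enters the residual spread here, so a gene that does not pass may still have changed. Without shCTL replicate 4 this fit takes its effect from set 1 alone, and 6 of the 10 passed, all lower. When the sets were free to differ and were averaged, MECOM alone passed.

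The library names in the labels carry numbers of their own, and these cross the sets. Set 1 holds the shCTL libraries numbered 3 and 4 and the shNYNRIN libraries numbered 1 and 2, and set 2 holds the reverse, so that the difference between the sets in the effect of the hairpin and a difference between numbers 1 and 2 and numbers 3 and 4 cannot be told apart. Columns were matched by these names. If the shCTL columns of the 2 tables had been exchanged, the effects within sets would differ in size. By the listed levels some, such as those of TAL1 and LYL1, would also differ in sign, while those of GATA2 would keep theirs. Such an exchange was not tested. Levels are set across the tables here, which may have been normalized separately, and were not tested. MYB stood at 71.8 to 75.4 FPKM in the 4 libraries numbered 1 and 2, whichever the hairpin, and at 90.5 to 94.7 FPKM in the 4 libraries numbered 3 and 4. KLF1 likewise stood at 53.0 to 60.0 FPKM and at 65.9 to 72.3 FPKM. For both genes shCTL and shNYNRIN libraries of like numbers lay side by side.

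TAL1 was at 95 to 112 FPKM in libraries numbered 1 and 2 and at 114 to 121 FPKM in libraries numbered 3 and 4, and GFI1B at 208 to 222 and 234 to 257 FPKM. Within numbers 1 and 2, however, TAL1 was lower in shCTL (95 to 96.2 FPKM) than in shNYNRIN (110.1 to 112 FPKM), and within numbers 3 and 4 it was higher in shCTL (120.9 to 121 FPKM) than in shNYNRIN (114 to 116 FPKM). GFI1B within numbers 3 and 4 was lower in shCTL (234 FPKM) than in shNYNRIN (252 to 257 FPKM). MYB, KLF1, TAL1 and GFI1B were the 4 of the 10 for which every library numbered 3 or 4 lay above every library numbered 1 or 2, an arrangement seen in 5.17% of all genes, and 0 of the 10 had the reverse, seen in 5.49%. The other genes did not divide in this way. GATA2 was lowest in the shNYNRIN libraries numbered 1 and 2 (170.6 to 172 FPKM) and highest in those numbered 3 and 4 (244.4 FPKM), with shCTL between them at 204.5 to 217 FPKM. MECOM was lower in shCTL than in shNYNRIN within numbers 1 and 2 (9 to 9.49 against 14.5 to 15.9 FPKM) and within numbers 3 and 4 (14.9 to 15.9 against 17.6 to 17.7 FPKM).

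**Figure D2:**
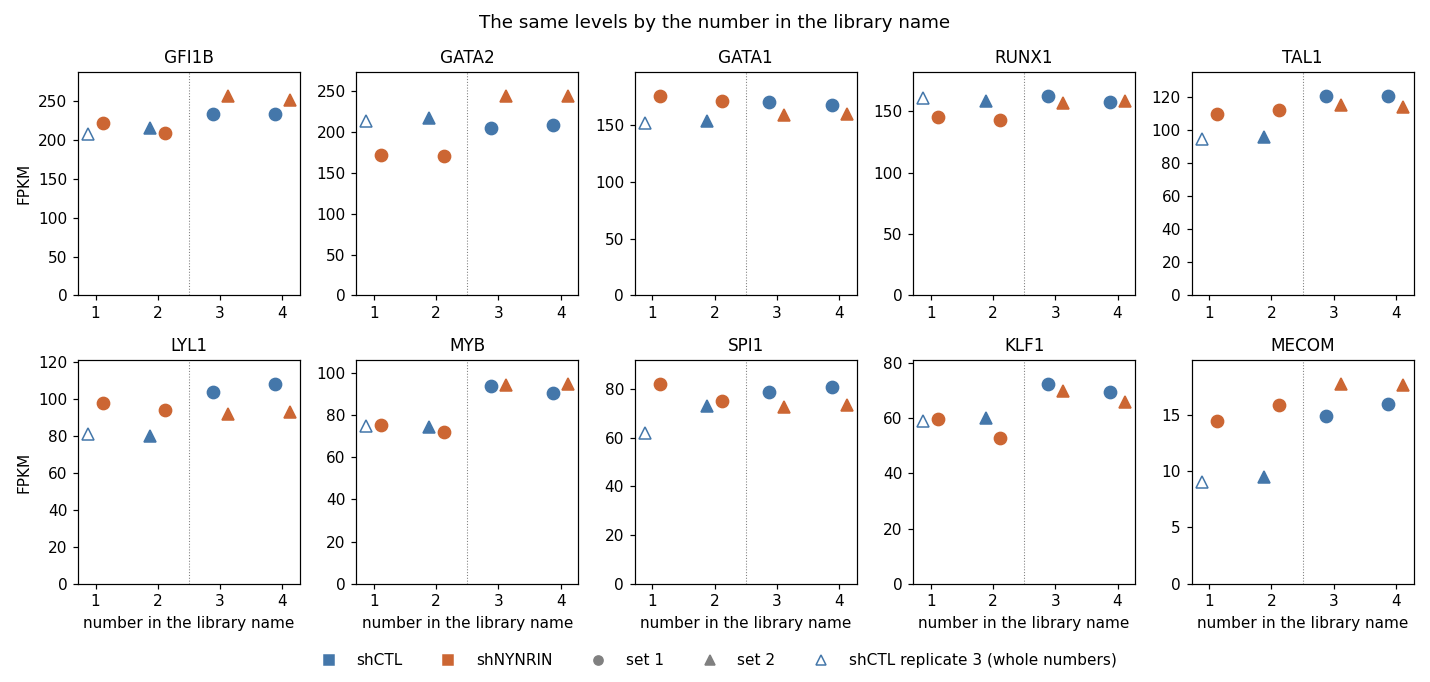
The FPKM of each gene in every library against the number in the library name (1 to 4), with circles for set 1, triangles for set 2, blue for shCTL, orange for shNYNRIN, and an open triangle for shCTL replicate 3. MYB lies at 71.8 to 75.4 FPKM left of the dotted line and at 90.5 to 94.7 FPKM right of it in both groups, while MECOM is lower in shCTL on either side.

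The genes varied together to different degrees over the 7 libraries. MYB and KLF1 had a Pearson r of 0.92, MYB and GFI1B 0.91, TAL1 and LYL1 0.89, and GATA2 and GFI1B 0.82. GATA1 and SPI1 went together (r = 0.82) and GATA1 opposite to GATA2 (r = -0.78). These values describe 7 libraries in 4 combinations of set and group, which share tables and hairpins, and carry no test. Among 5879 other genes of at least 10 FPKM on average, the 3 most like GATA2 over the 7 libraries were CPNE1 (r = 0.997), MAT2B (0.994) and ZCCHC7 (0.990). The 3 most like GFI1B were NDRG3 (0.983), EXOC3 (0.981) and JUNB (0.980), and the 3 most like GATA1 were ATF7IP2 (0.986), TNS1 (0.980) and ACRBP (0.976). High values are common with so few libraries: 164 genes had an r above 0.9 with GATA2, 162 with GFI1B and 57 with GATA1.

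Partners that build complexes with these factors were also looked at. LMO2, the bridging protein of the TAL1 complex, stood in set 1 at 107.3 and 106.8 FPKM in shCTL and 89.8 and 92.5 FPKM in shNYNRIN, and in set 2 at 89.4 FPKM in shCTL replicate 4 (92 in shCTL replicate 3) and 117.4 and 117.1 FPKM in shNYNRIN. Its groups were apart in both sets, lower with shNYNRIN in set 1 and higher in set 2, as for GATA2. It fell in set 1 (log2 fold change -0.23, limma adjusted p = 0.00444) and rose in set 2 (0.39, limma adjusted p = 0.000916). LDB1, which joins LMO2 to other complexes, fell in set 1 (-0.24, limma adjusted p = 0.00593), and the E protein TCF4 rose in set 2 (0.50, limma adjusted p = 0.00494). The deacetylase HDAC1 rose in set 1 (0.25, limma adjusted p = 0.00777), a call lost without shCTL replicate 2 (limma adjusted p = 0.0508). Of 21 partners, all tested, 1 rose and 3 fell in set 1 and 4 rose and 2 fell in set 2 (medians -0.029 and 0.072). These are 19.0% and 28.6% of the list, near the 15.9% and 20.3% of all genes called in either direction. Of the 6150 genes of at least 10 FPKM in 2 libraries, tested alone, 2103 and 2332 were called, which are larger shares. This list and those below hold genes on both sides of that level.

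Of 35 other factors of blood cells 20 were tested. In set 1, 2 rose and 6 fell (40% of those tested, median -0.038), and in set 2, 9 rose and 2 fell (55%, median 0.18), where 15.9% and 20.3% of all genes were called. HHEX, a homeobox factor of early blood cells, fell in set 1 (log2 fold change -0.30, limma adjusted p = 0.0111) and rose in set 2 (0.57, limma adjusted p = 0.00159). NFE2L2, which induces antioxidant genes, fell in set 1 from 15.2 and 14.2 FPKM to 9.01 and 9.65 FPKM (-0.60, limma adjusted p = 0.00188) and was at 0.11 in set 2 (limma adjusted p = 0.302). ZBTB16, a zinc finger repressor, went the other way from MYB and GATA2, with a rise in set 1 (0.57, limma adjusted p = 0.00116) and a fall in set 2 (-0.19, limma adjusted p = 0.0457). The set 2 call of ZBTB16 was lost without shCTL replicate 1 or 2, or shNYNRIN replicate 3 or 4 (over 15 alternatives the limma adjusted p ran from 0.0113 to 0.180). ETS1 rose in set 2 (0.29, limma adjusted p = 0.00125), from 185 FPKM in shCTL replicates 3 and 4 to 226 and 229 FPKM.

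Target genes of GATA1, TAL1 and KLF1 in red cell and platelet precursors were mixed. Of 36 listed, 29 were tested, of which 2 rose and 8 fell in set 1 (34.5%, median 0.035) and 9 rose and 3 fell in set 2 (41.4%, median 0.097), beside the same shares of all genes. ALAS2, the erythroid enzyme that starts haem synthesis, rose in both sets (log2 fold changes 0.48 and 0.35, limma adjusted p = 0.00391 and 0.0120). Beta-globin (HBB) fell in set 2 (-0.56, limma adjusted p = 0.0113). HBB was at 50.8 FPKM in shCTL replicate 4 and at 38 in shCTL replicate 3, and with the latter included as deposited the log2 fold change was -0.35 and did not pass (limma adjusted p = 0.0610, the highest over 15 alternatives, of which the lowest was 0.00210). CD36, a fatty acid receptor of red cell and platelet precursors, fell in set 1 (-0.31, limma adjusted p = 0.0114, and 0.0692 without shCTL replicate 2) and rose in set 2 (0.53, limma adjusted p = 0.00244).

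Of 21 myeloid targets of SPI1 and RUNX1 only 9 were tested. Of these 1 rose and 3 fell in set 1 (median -0.067) and 4 rose and 0 fell in set 2 (median 0.18). That is 44.4% in each set, where 15.9% and 20.3% of all genes were called. Of the 6150 genes of at least 10 FPKM in 2 libraries, 2103 and 2332 were called. CSF2RB, the shared beta chain of the GM-CSF, IL-3 and IL-5 receptors, fell in set 1 (log2 fold change -0.25, limma adjusted p = 0.00578) and rose in set 2 (0.26, limma adjusted p = 0.00637). Lysozyme (LYZ) rose in set 1 (0.49, limma adjusted p = 0.00942) and in set 2 (0.43, limma adjusted p = 0.0205), calls that were lost without shCTL replicate 2 in set 1 and without shNYNRIN replicate 3 or 4 in set 2 (limma adjusted p up to 0.0553 and 0.0893 over 15 alternatives each). Among 19 stem and progenitor genes 15 were tested. There were 0 higher and 1 lower in set 1 (6.67%, median -0.081), beside 15.9% of all genes called. In set 2 there were 8 higher and 4 lower (80%, median 0.16), beside 20.3% of all genes. TEK, the angiopoietin receptor, stood in set 2 at 3.18 FPKM in shCTL replicate 4 (3 in shCTL replicate 3) and 8.70 and 9.64 FPKM in shNYNRIN (1.28, limma adjusted p = 0.000426), and was at -0.022 in set 1 (limma adjusted p = 0.858). The mast cell protease CPA3 rose in set 2 from 12.8 FPKM (12 in shCTL replicate 3) to 25.0 and 27.6 FPKM (0.98, limma adjusted p = 0.000956). No set test was made of these lists. They were drawn up with earlier results of these data known, so their shares beside those of all genes are a description only.

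The values of GFI1B, MYB and TAL1 may hold reads of overlapping genes. Exons of GFI1B meet those of TSC1 on the opposite strand, exons of MYB those of MYB-AS1 and exons of TAL1 those of an antisense gene (ENSG00000226252), and whether strand was used in counting is not stated in the labels. These neighbours reached at most 9.57, 4.31 and 5.63 FPKM in set 2.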

How the data were processed

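RNA from sorted cells was sequenced with SMART-Seq v4, per the labels. The labels name Bowtie 0.12.9, Cufflinks 2.1.1 and HTSeq, and the builds mm10 and hg38, with no role, in the submitters' processing notes. For 7 libraries the deposited values are taken to be FPKM, given their scale and Cufflinks among the tools, with 0.001 in place of 0 in the first table. Deposited values of shCTL replicate 3 are whole numbers and count here as a score: 763 of 830 genes that lay at 0.5 to 0.9 FPKM in both shCTL replicate 4 and shNYNRIN replicate 3 are 0 in it, as truncation would give. The authors also deposited a log2 fold change, p-value and q-value for set 1, from a program not given in the sources used here. Columns were matched to samples by library name.

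The test was limma 3.58.1 (R 4.3.3, mean-variance trend) on log2(FPKM + 1) of the 12939 genes that reached 1 FPKM in 2 or more of 7 libraries, two-sided, with Benjamini-Hochberg adjustment over all of them and a threshold of 0.05. Fold changes are on that scale. All 10 genes passed the filter. An interaction model gave the effects within sets and their difference (3 residual degrees of freedom, the lone control of set 2 assumed to vary like the others), and an additive model with a table term gave the single effect (4). The fits were tested on simulated data. Alternatives were other pseudocounts, filters, scalings and trend settings, shCTL replicate 3 included, replicate blocks and each library left out. A planned test of set 2 against set 1 within shNYNRIN was left out, since the tables may have been normalized separately. The members and lists were chosen with earlier results of these data known. Text names the 10 genes, NYNRIN, up to 3 of the largest called genes of each list and set, and the 3 genes most like each of the 3 highest members; 1 gene is not reported here.

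Whether numbers pair the libraries was checked over 5880 genes of at least 10 FPKM on average, with 0.5 added to shCTL replicate 3. By library-name number, from the labels, deviations from the group means of like-numbered libraries had an r of 0.102, 0.141, 0.153 and 0.147, over 0.1 in each, while the highest r with another number was 0.180, 0.144, 0.141 and 0.162. These r also carry the difference between the sets. By title number r was -0.128, -0.174, -0.161 and -0.150.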

Additional observations from a re-analysis of the deposited data

Results flagged for a closer look

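The effect of shNYNRIN differed between the 2 sets, by the interaction term of the limma model, for 7 of the 10 genes. The difference of log2 fold changes, set 2 minus set 1, was 0.85 for MECOM, 0.66 for MYB, 0.50 for KLF1, 0.44 for GATA2, 0.37 for TAL1, 0.36 for GFI1B and 0.34 for LYL1. For MYB, GATA2, TAL1 and LYL1 the effect passed in both sets with opposite signs.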

How the results depend on the processing

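Over the 15 alternatives that gave values within sets, MYB passed in both sets and GATA2 in set 1 and MECOM in set 2, and the difference between the sets passed for GATA2, TAL1, KLF1, GFI1B, MYB and MECOM. The calls within sets of TAL1, KLF1, RUNX1, LYL1 and GFI1B, and of GATA2 in set 2, depended on the setting. Without the mean-variance trend, 2 of the 10 genes passed in set 1 and 3 in set 2, with 977 of all genes in set 1, 1726 for the difference and 0 over both sets. With a replicate block by title number, 3 and 2 of the 10 passed in sets 1 and 2, with 627, 630, 838 and 0 of all genes in set 1, set 2, the difference and both sets. With a replicate block by library-name number, 0 of the 10 and 0 of all genes passed the limma test over both sets (1 and 2188 by unadjusted p). That fit had no table term. Like-numbered shCTL and shNYNRIN libraries stand in different tables, so it sets the groups against each other across tables that may have been normalized separately. Within sets this block could not be fitted, being confounded with the interaction. Over both sets, 88 genes passed among those of at least 10 FPKM, 8 with quantile normalization, 356 with shCTL replicate 3 as deposited and 452 with 0.5 added to it, against 41 (25 higher and 16 lower, or 10 and 19 with upper-quartile scaling). Averaging free effects gave 2304 genes and 1 of the 10. When 1 library was left out, 2 to 6 of the 10 passed in set 1, 3 to 7 in set 2 and 0 to 6 over both sets, and 611 to 1469, 1170 to 2975 and 0 to 2088 of all genes, with 1429 to 2590 for the difference and 7 of the 10 there each time. Over both sets the 2088 came without shCTL replicate 4, and 0 genes passed limma without any other library (1803 to 2071 by unadjusted p). Without shCTL replicate 4 the within-set fits gave no value.

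Signs turned for genes that did not pass: with upper-quartile scaling GATA1 was at -0.0042 in set 1 and SPI1 at -0.019 in set 2. RUNX1 in set 2 was at 0.0015 with the title block. When 1 library was left out, SPI1 ran from -0.090 to 0.037 in set 1 (above 0 without shNYNRIN replicate 2), from -0.0035 to 0.0086 in set 2 (below 0 without shNYNRIN replicate 4) and from -0.034 to 0.092 for the difference (below 0 without shNYNRIN replicate 2). RUNX1 in set 2 ran from -0.015 to 0.0015 (above 0 without shNYNRIN replicate 3). MECOM ran from -0.086 to 0.042 in set 1 (above 0 without shCTL replicate 2 at 0.022, or shNYNRIN replicate 1) and from -0.022 to 0.44 over both sets (below 0 without shCTL replicate 4). The cause was not tested.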
